A study of Rattus norvegicus with 24 samples.

Results

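The transcriptome of the rat tibialis anterior, the large ankle dorsiflexor at the front of the lower hindlimb, was compared between the left muscle after 10 days of daily resistance training and the unstimulated right muscle of the same animal. The members were defined by label, with earlier results of these data known. They were 6 of the 24 muscles in the series, namely 3 trained muscles and the 3 contralateral muscles of the same rats. In the whole series, 12 adult male Wistar rats were trained for 2, 10, 20 or 30 days, with 3 rats at each duration, and RNA from both tibialis anterior muscles of each rat was sequenced. Training, named SpillOver by the study, was delivered each day by an implanted pulse generator that stimulated the left common peroneal nerve, while the plantarflexors contracted against the dorsiflexors and so supplied the load. Muscles were collected an hour after the last bout, so the trained muscles carried both the days of training and the last bout, and these cannot be told apart at a single collection time. No allele distinguished the groups. At surgery every rat received enrofloxacin under the skin and buprenorphine in the right quadriceps. Every rat carried the implant, and its electrodes were placed by surgery at nerves of the left limb alone. Effects of training therefore cannot be told apart from those of surgery and electrodes on that side. No muscle of a rat without an implant entered the comparison, and the contralateral muscle shared the circulation and the daily cycle of its trained partner.

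As background, skeletal muscle that is loaded repeatedly grows, and a single loading bout is followed within hours by transient transcription of immediate early genes, chaperones and signalling inhibitors. Load on the fibre is sensed at the Z-disc, the anchor of the thin filaments, and at costameres and integrins that join the fibre to its surrounding matrix. Repeated contraction also shifts fast muscle from type IIB fibres, which are the fastest and most glycolytic, toward type IIX and IIA fibres, with changes in myosin, calcium-binding and metabolic genes.

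Values are deposited transcript values divided by 1 scaling factor per library, and are called levels here. The study's methods name DESeq2 median-of-ratios values, but every deposited library has the same total, so the values were treated as of the TPM type, a share of the library per transcript length. That they are divided by length was taken from this and is not stated, and an order of levels between transcripts rests on it. The deposited values hold no read counts, so the depth of each library is unknown and no counting interval is given. The factors of the 6 libraries lay between 0.957 and 1.14. No 2 of the 24 libraries held identical values. Transcripts of the mitochondrial genome took 31.6%, 28.4% and 28.0% of the deposited total in the contralateral muscles of animals 1, 2 and 3, and 24.1%, 23.4% and 27.4% in their trained muscles. Every trained muscle was below every contralateral muscle in this share, and its part in the changes of other transcripts was not tested. Throughout, 3 values given together are those of animals 1, 2 and 3 in that order, and fold changes are on the log2(level + 1) scale, on which the change of a low transcript is understated. In every transcript whose 6 levels at 10 days are given, the trained levels lay wholly on 1 side of the contralateral ones, except Myh3 and Myh4-201. For the transcripts named for the largest changes, this separation was a condition of the choice.

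Of 13452 transcripts tested with limma, 1876 (13.9%) passed an adjusted p of 0.05, from 1791 genes. Of these, 1187 (8.82% of those tested) were higher and 689 (5.12%) were lower in the trained muscle. The higher transcripts also moved further: 452 of them rose by at least 1 on the log2 scale and 79 by at least 2, against 93 and 13 of the lower ones. The median change over all tested transcripts was -0.02. Of the 1187, 1183 were higher in the trained muscle of all 3 animals, and of the 689, 681 were lower in all 3. The trained levels lay wholly above the contralateral levels for 1097 of the 1187 and wholly below for 640 of the 689. Over all tested transcripts, such complete separation was seen upward in 15.0% and downward in 15.5%. With the levels as deposited, without rescaling, 1166 were higher and 291 lower, which moved the share of higher calls from 63.3% to 80.0%. Among the 3916 transcripts with a mean of at least 10, tested alone, the balance turned, with 455 higher and 608 lower (42.8% higher). Without animal 1 the counts were 646 higher and 255 lower, without animal 2 they were 767 and 277, and without animal 3 they were 817 and 342. A whole muscle holds several cell types, and for any of these transcripts more cells of a type and more RNA per cell cannot be told apart.

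**Figure D1:**
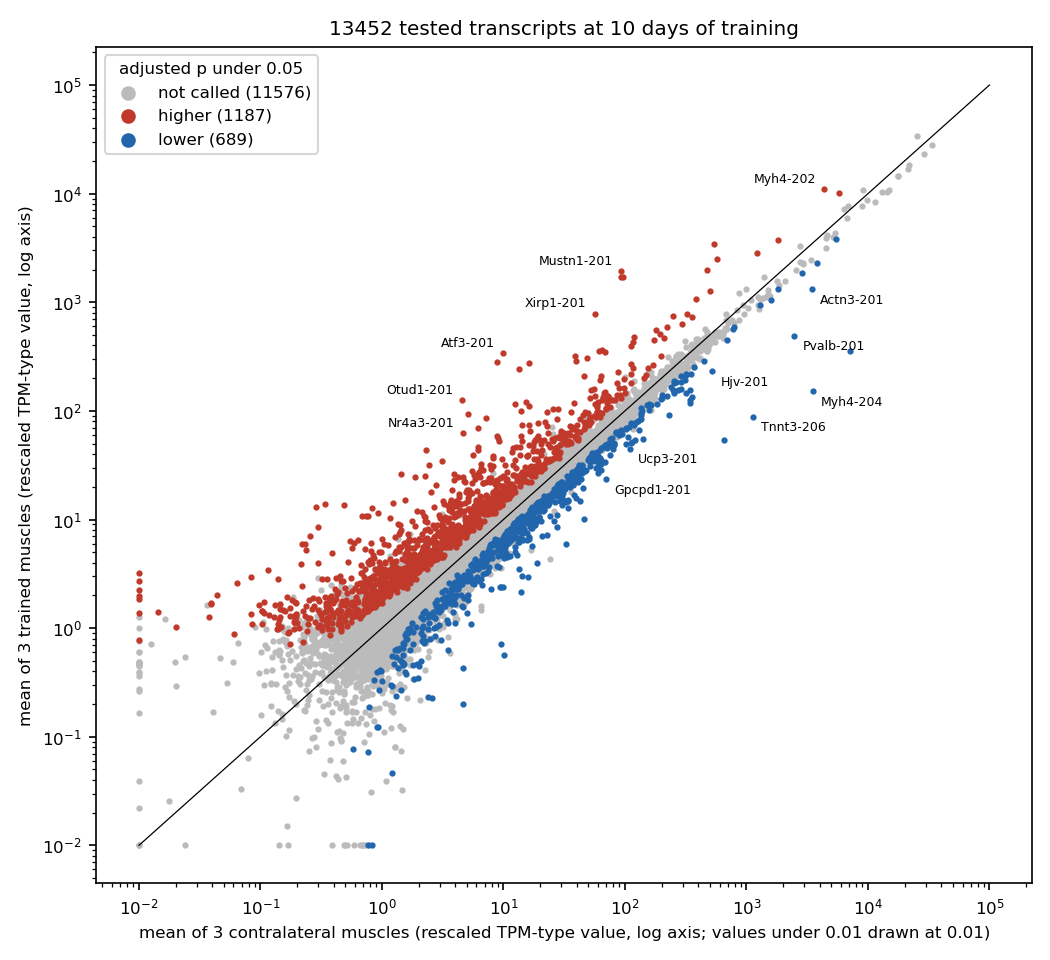
Mean level of each tested transcript in the 3 contralateral muscles (horizontal axis) against the 3 trained muscles (vertical axis), both as rescaled TPM-type levels on log axes, with means under 0.01 drawn at 0.01. Coloured points passed an adjusted p of 0.05, 1187 above and 689 below the diagonal, and the rising transcripts reach further from it than the falling ones.

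Among called transcripts with a group mean of at least 50 and no overlap of the groups, the largest rises were those of Atf3, Ankrd1, Otud1 and Mustn1. Atf3, a stress-induced transcription factor, stood at 5.56, 12.1 and 12.1 in the contralateral muscles and 462, 398 and 155 in the trained muscles. The trained muscle of animal 3 was the lowest of the trained muscles and still far above every contralateral muscle (log2 fold change 4.89, SE 0.50, adjusted p = 9.91e-05). Ankrd1, a titin-binding ankyrin repeat protein induced by stretch, stood at 4.75, 12.98 and 8.77 in the contralateral muscles and 321, 423 and 103 in the trained muscles, again without overlap and with the smallest trained level in animal 3 (log2 fold change 4.72, SE 0.41, adjusted p = 3.91e-05). Otud1, a deubiquitinase, stood at 2.85, 4.45 and 6.26 in the contralateral muscles and 141, 168 and 68.4 in the trained muscles, where even the lowest trained level exceeded the contralateral ones many times (log2 fold change 4.47, SE 0.47, adjusted p = 0.000119). Mustn1, a small protein of developing and regenerating muscle and bone, rose from already substantial levels. It stood at 115, 88.9 and 75.7 in the contralateral muscles and 2159, 2546 and 1125 in the trained muscles (log2 fold change 4.31, SE 0.24, adjusted p = 4.29e-06). Rcan1, a calcineurin inhibitor that calcium signalling itself induces, rose by 2.82 (SE 0.22, adjusted p = 2.06e-05), and Tnfrsf12a, the receptor of the cytokine TWEAK, by 2.79 (SE 0.22, adjusted p = 2.22e-05).

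Rtn4 changed in opposite directions by transcript. The transcript Rtn4-201 stood at 4.62, 5.38 and 8.38 in the contralateral muscles and 82.3, 79.9 and 44.5 in the trained muscles (log2 fold change 3.28, SE 0.32, adjusted p = 8.5e-05). Rtn4-203 stood at 281, 202 and 177 in the contralateral muscles and 135, 160.3 and 115 in the trained muscles and fell (log2 fold change -0.66, SE 0.15, adjusted p = 0.0144), a call lost with an animal left out (adjusted p = 0.134 without animal 1 and 0.0563 without animal 3). Rtn4 encodes the reticulons of the endoplasmic reticulum. The change of the gene's summed level was -0.26 and did not pass (adjusted p = 0.122).

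**Figure D2:**
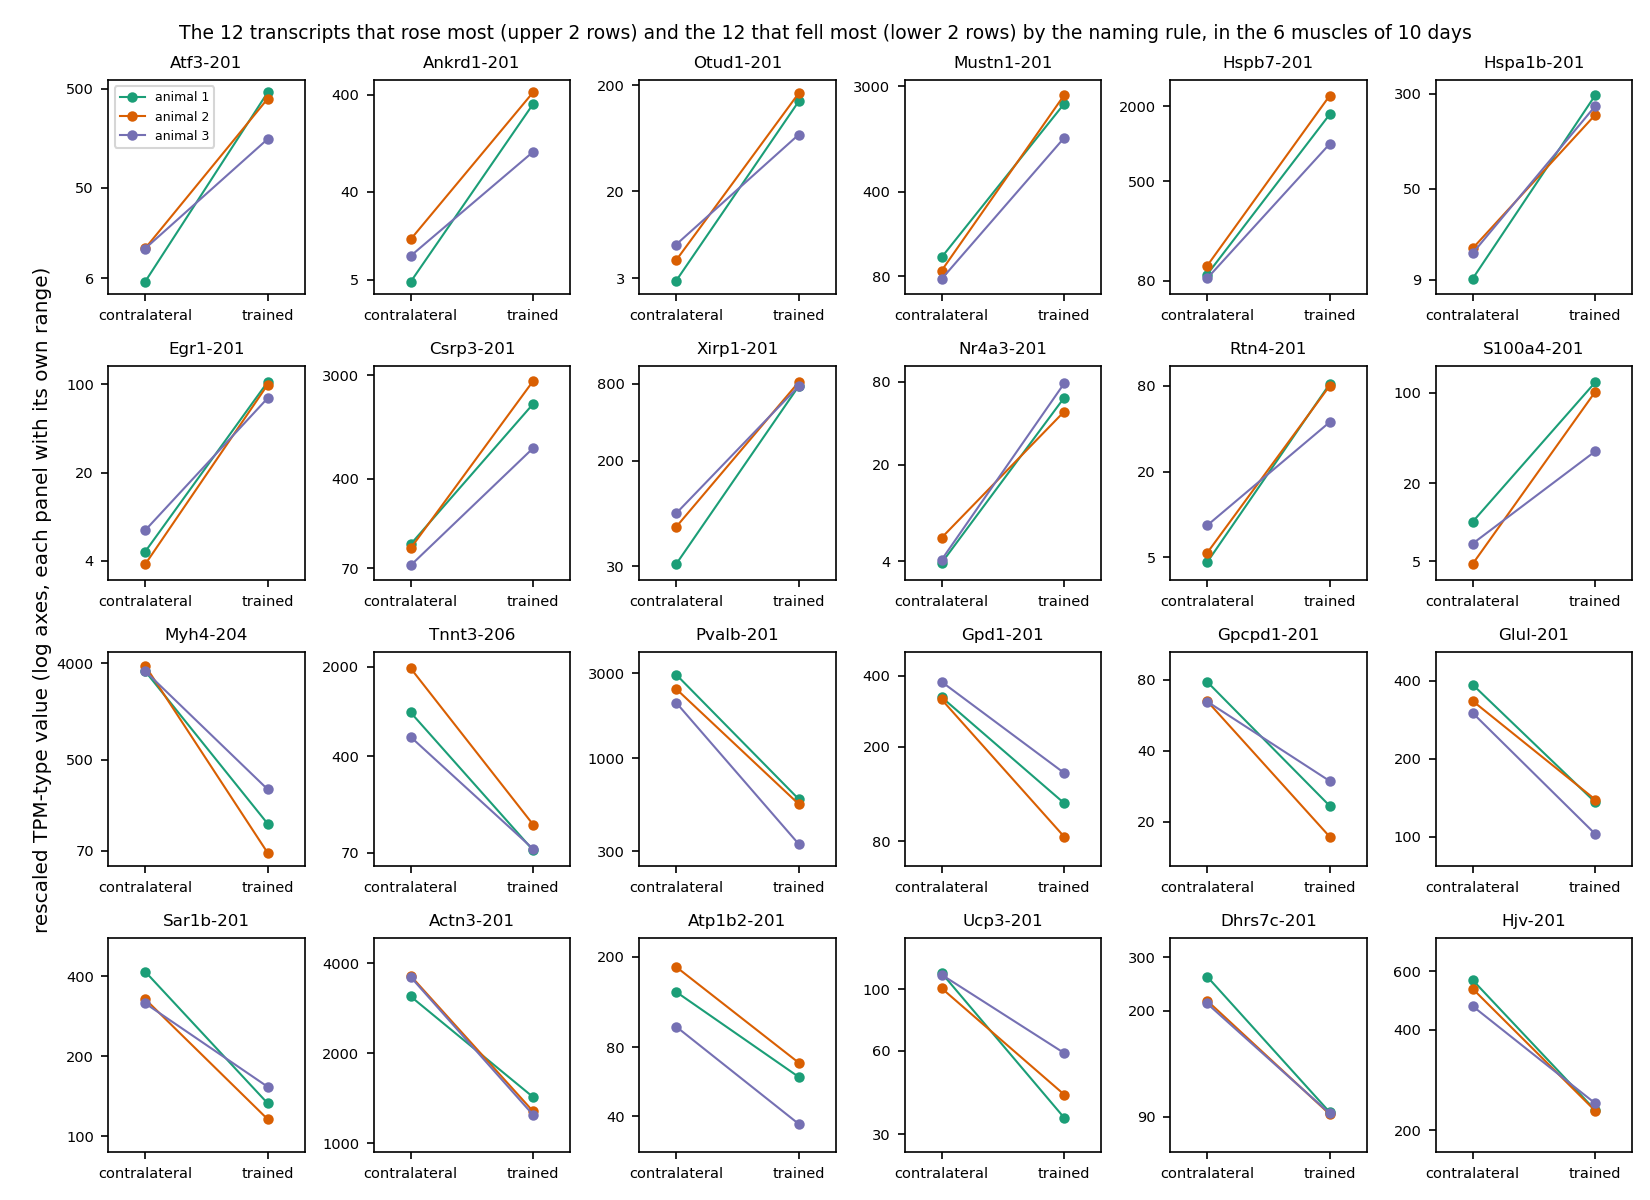
Levels of the transcripts with the largest changes in each of the 6 muscles, as rescaled TPM-type levels on a log axis, with lines joining the contralateral and the trained muscle of 1 animal. Only transcripts with the 3 trained muscles on 1 side of the 3 contralateral muscles were chosen, so this separation is no result.

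Immediate early and stress transcription factors, which are transcribed within minutes of a stimulus without new protein synthesis, rose almost throughout. Of 23 measured members, 19 rose and none fell, with a median change of 1.69 against -0.03 over 1 transcript of each of 11100 genes, of which 9.75% rose and 5.70% fell. These 2 shares are the background for every list count below, and a count near them is no result about the members of that list. They cover genes of all levels. Among the 3916 transcripts with a mean of at least 10, tested alone, 455 rose and 608 fell. For lists of abundant genes the share of falls over all genes is therefore too low a background. Leaving out any 1 animal left 17 higher. Egr1, a zinc finger factor, stood at 4.72, 3.74 and 6.97 in the contralateral muscles and 105, 99.8 and 77.97 in the trained muscles, with little spread among the trained muscles (log2 fold change 3.98, SE 0.30, adjusted p = 1.89e-05). Nr4a3, an orphan nuclear receptor, stood at 3.90, 5.94 and 4.11 in the contralateral muscles and 61.6, 48.8 and 78.2 in the trained muscles, and here animal 3 was the highest of the trained muscles (log2 fold change 3.49, SE 0.26, adjusted p = 1.89e-05). The AP-1 subunits Fos and Fosb rose by 2.90 (SE 0.48, adjusted p = 0.00222) and 2.88 (SE 0.24, adjusted p = 3.23e-05), Junb by 2.13 and Jund by 1.95, while Jun changed by 0.81 and did not pass (adjusted p = 0.0614). Maff, a small Maf factor, rose by 3.20. The members with no call were Jun, Ier2 (0.62), Klf2 (0.02) and Zfp36 (-0.14), and the smallest of the calls, that of Nr4a2 (0.49), was lost without any 1 animal (adjusted p = 0.0549 without animal 1, 0.188 without animal 2 and 0.242 without animal 3).

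Feedback inhibitors of the pathways that induce these factors moved unevenly. Of 16 measured members, 6 rose and none fell, with a median of 0.59. Dusp2, a nuclear phosphatase of MAP kinases, stood at 0.316, 0.142 and 0.563 in the contralateral muscles and 15.5, 14.6 and 11.95 in the trained muscles (log2 fold change 3.49, SE 0.19, adjusted p = 4.29e-06), so that a transcript below a level of 1 in every contralateral muscle was above 10 in all 3 trained muscles. Socs3, an inhibitor of cytokine receptor signalling, rose by 2.11 (SE 0.35, adjusted p = 0.00218) and Sik1, a salt-inducible kinase, by 1.40 (SE 0.21, adjusted p = 0.00121). The phosphatases Dusp1 (0.28, adjusted p = 0.631) and Dusp6 (0.39, adjusted p = 0.113) and the inhibitor Spry1 (-0.38, adjusted p = 0.308) did not pass.

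Serum response factor binds the CArG box, and promoters of 2 rising genes are shown because each holds 1 such box. Klf6 is a Krüppel-like immediate early factor (change 1.69, SE 0.30, adjusted p = 0.00365), and Fhl1 is a LIM protein of the sarcomere and stretch sensor (change 2.69, SE 0.15, adjusted p = 4.29e-06). Each sequence is RefSeq, assembly GRCr8, 250 bases before to 50 bases after the annotated start, 5′ to 3′ on the gene's strand, with the box in capitals. For genes with several promoter entries the first was used, and its start need not be that of the transcript measured. The Klf6 window is chr17:69458429-69458728 on the minus strand, with the box starting at -201 from the start. The Fhl1 window is chrX:139638246-139638545 on the plus strand, with the box starting at -102.
Klf6: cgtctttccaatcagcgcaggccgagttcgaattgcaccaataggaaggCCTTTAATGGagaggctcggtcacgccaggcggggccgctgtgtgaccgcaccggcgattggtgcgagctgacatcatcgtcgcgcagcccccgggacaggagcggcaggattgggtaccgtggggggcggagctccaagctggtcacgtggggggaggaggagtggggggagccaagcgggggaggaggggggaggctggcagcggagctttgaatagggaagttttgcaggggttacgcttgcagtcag
Fhl1: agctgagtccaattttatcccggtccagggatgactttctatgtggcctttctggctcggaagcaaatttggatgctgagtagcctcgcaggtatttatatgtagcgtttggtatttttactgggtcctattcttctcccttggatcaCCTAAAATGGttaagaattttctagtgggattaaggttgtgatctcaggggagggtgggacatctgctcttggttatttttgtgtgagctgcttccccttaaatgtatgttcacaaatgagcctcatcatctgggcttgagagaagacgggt
The box was searched on both strands in the promoters of 27457 genes and was present in 1.64% of them, in 1.30% of the 8103 tested genes with an entry, in 2.02% of 794 rising genes, in 1.26% of 476 falling genes and in 1.21% of genes with no call. It was found in 3 of 13 rising immediate early members with a promoter entry (Egr1, Egr2 and Klf6), in 1 of 2 that did not rise (Zfp36), in 2 of 10 rising members of the stretch list (Fhl1 and Fhl2) and in 1 of 10 of its members that did not rise (Ldb3). The AP-1 site, spelled TGANTCA, was present in 7.33% of all promoters, 4.68% of tested genes, 8.31% of rising genes, 2.73% of falling genes, 4.39% of genes with no call, and 0 of 13 rising immediate early members. These matches describe the letters in the window alone.

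Proteins of the Z-disc and the sarcomere that respond to stretch held several of the largest changes. Of 26 measured members, 14 rose and 1 fell, with a median of 0.87. The count of rising members was 8 without animal 1, where 2 fell. Csrp3, the muscle LIM protein at the Z-disc, stood at 111, 103 and 73.8 in the contralateral muscles and 1725, 2698 and 728 in the trained muscles (log2 fold change 3.97, SE 0.41, adjusted p = 0.000115). The trained level of animal 3 was the lowest and the groups did not overlap. Xirp1, an actin-binding Xin repeat protein of damaged and remodelling myofibrils, stood at 31.3, 61.02 and 77.8 in the contralateral muscles and 768, 824 and 766 in the trained muscles, with trained levels close to each other (log2 fold change 3.86, SE 0.24, adjusted p = 7.38e-06). Flnc, the muscle filamin, rose by 2.07 (SE 0.26, adjusted p = 0.000393) and Actn2, the alpha-actinin of all fibres, by 1.34 (SE 0.19, adjusted p = 0.000759). Actn3, the alpha-actinin of fast fibres, was the member that fell, from 3099, 3632 and 3599.6 to 1428, 1279 and 1245 (log2 fold change -1.38, SE 0.21, adjusted p = 0.00122). Ankrd2, a relative of Ankrd1 that is usual in slow fibres, changed by 1.79 (adjusted p = 0.0211), and its call was lost with an animal left out (adjusted p = 0.062 without animal 1 and 0.163 without animal 2). Structural members such as Myot (-0.15), Ldb3 (0.18) and Myoz2 (-0.01) had changes near 0 and none of them passed.

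Small heat shock proteins, which hold unfolding proteins and bind to the sarcomere, rose in part. Of 16 measured members of the list with their co-chaperones, 7 rose and 1 fell, with a median of 0.39. Hspb7 stood at 89.8, 105 and 83.7 in the contralateral muscles and 1715, 2421 and 996 in the trained muscles, again lowest in animal 3 among the trained muscles (log2 fold change 4.10, SE 0.28, adjusted p = 1.25e-05). Hspb6 rose by 2.09 (SE 0.19, adjusted p = 4.58e-05), Cryab by 2.03 (SE 0.24, adjusted p = 0.000228) and Bag3, the co-chaperone that joins them to Hsp70, by 1.25 (SE 0.16, adjusted p = 0.000492). Hspb1 changed by 1.39 (SE 0.30, adjusted p = 0.0101), and its call was lost with an animal left out (adjusted p = 0.0917 without animal 1 and 0.0674 without animal 2). The Hsp90 co-chaperone Fkbp4 fell by 0.68 on the log2 scale (adjusted p = 0.0037).

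Some of the larger chaperones rose and most did not pass. Of 24 measured members, 8 rose and none fell, with a median of 0.06. Hspa1b, an inducible Hsp70, stood at 9.21, 16.3 and 14.9 in the contralateral muscles and 291, 201 and 237 in the trained muscles, with no overlap (log2 fold change 4.10, SE 0.33, adjusted p = 2.22e-05). Its near-identical copy Hspa1a may share its reads, so the value may belong to both. Dnajb1, the Hsp40 that works with it, rose by 2.23 (SE 0.35, adjusted p = 0.00163) and Hsp90aa1, the inducible Hsp90, by 1.09 (SE 0.18, adjusted p = 0.0021). The constitutive Hspa8 (-0.12, adjusted p = 0.761) and Hsp90ab1 (-0.17, adjusted p = 0.43) and the mitochondrial Hspd1 (-0.39, adjusted p = 0.0508) did not pass. Chaperones of the endoplasmic reticulum had 1 higher and 1 lower member of 22, with a median of 0.03. These calls, Serp1 and Atf4, were both lost with any 1 animal left out (adjusted p for Serp1 = 0.129 without animal 1, 0.141 without animal 2 and 0.132 without animal 3, and for Atf4 = 0.188 without animal 1, 0.0531 without animal 2 and 0.0921 without animal 3), and the central chaperone Hspa5 was at -0.13 (adjusted p = 0.5).

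Heat shock factor binds inverted repeats of GAA, and 3 promoters are shown because their genes rose and their windows hold the paired unit GAANNTTC or TTCNNGAA, in capitals. They are RefSeq sequences of assembly GRCr8 cut as above. Hspb1 is at chr12:26432252-26432551 on the minus strand with 2 units, Bag3 at chr1:192533210-192533509 on the plus strand with 1, and Dnajb1 at chr19:41431092-41431391 on the minus strand with 2.
Hspb1: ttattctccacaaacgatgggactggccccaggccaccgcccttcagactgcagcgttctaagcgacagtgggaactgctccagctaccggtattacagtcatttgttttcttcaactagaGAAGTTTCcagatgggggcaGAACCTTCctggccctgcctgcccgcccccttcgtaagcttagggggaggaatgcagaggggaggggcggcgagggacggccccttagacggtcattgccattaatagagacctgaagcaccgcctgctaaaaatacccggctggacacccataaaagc
Bag3: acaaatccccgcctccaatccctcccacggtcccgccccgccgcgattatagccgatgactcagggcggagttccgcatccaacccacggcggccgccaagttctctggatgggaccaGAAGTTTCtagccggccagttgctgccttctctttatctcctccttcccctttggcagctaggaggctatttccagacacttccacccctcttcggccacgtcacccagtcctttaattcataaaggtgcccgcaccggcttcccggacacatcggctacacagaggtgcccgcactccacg
Dnajb1: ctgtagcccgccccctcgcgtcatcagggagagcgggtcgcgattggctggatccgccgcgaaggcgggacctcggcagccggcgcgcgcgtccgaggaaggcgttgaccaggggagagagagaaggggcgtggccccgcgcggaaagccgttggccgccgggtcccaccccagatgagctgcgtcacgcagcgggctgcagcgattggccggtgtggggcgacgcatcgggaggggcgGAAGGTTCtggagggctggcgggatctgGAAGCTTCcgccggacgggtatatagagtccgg
The unit was present in 15.4% of all promoters, in 11.6% of rising genes, in 9.24% of falling genes and in 11.2% of genes with no call. In the small heat shock list it was present in 4 of 6 rising members with an entry and in 3 of 8 that did not rise, and in the list of larger chaperones in 3 of 5 and in 9 of 16. Each spelling is its own reverse complement, so both strands give the same sites, and the spellings can overlap where units follow each other.

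In the fast contractile list more members fell than rose, and some genes changed by transcript. Of 13 measured members of the fast list, taking the most abundant transcript of each gene, 1 rose and 4 fell, with a median of -0.36. The member that rose was Myh4, which stands in the list by Myh4-202 (1.37, adjusted p = 0.000556). Other transcripts with this symbol fell or did not pass, as given below, so this rise is no result about type IIB myosin. Pvalb, the calcium buffer that speeds relaxation of the fastest fibres, stood at 2947, 2449 and 2049.6 in the contralateral muscles and 589, 553 and 329.6 in the trained muscles (log2 fold change -2.37, SE 0.34, adjusted p = 0.000866), and the groups were far apart. Mylk2, the skeletal myosin light chain kinase, fell by 1.13 on the log2 scale (adjusted p = 0.00028). The fast troponins Tnni2 (-0.23, adjusted p = 0.398) and Tnnc2 (-0.18, adjusted p = 0.458) and the light chains Myl1 (0.18, adjusted p = 0.525) and Mylpf (0.23, adjusted p = 0.355) did not pass.

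Transcripts named Myh4, for the type IIB myosin heavy chain, went both ways. On chromosome 10 of Rnor_6.0, Myh4-204 (53781239 to 53848347, plus strand) stood at 3378, 3806 and 3379.8 in the contralateral muscles and 126, 66.96 and 264 in the trained muscles (log2 fold change -4.74, SE 0.51, adjusted p = 0.000146), and Myh4-203 (53778662 to 53801603) at 6521, 7354 and 7536 in the contralateral muscles and 270.0, 132 and 663 in the trained muscles (log2 fold change -4.63, SE 0.53, adjusted p = 0.000197). Both fell with no overlap, and animal 3 kept the highest trained level in both. Myh4-202 (53740841 to 53764610) stood at 3221, 4681 and 5233 in the contralateral muscles and 11593, 10434 and 11178 in the trained muscles and rose (log2 fold change 1.37, SE 0.18, adjusted p = 0.000556). Myh4-201 (53713938 to 53738031) stood at 778, 852 and 953 in the contralateral muscles and 1190.0, 1759.5 and 683 in the trained muscles and did not pass (log2 fold change 0.39, SE 0.27, adjusted p = 0.381). The spans of Myh4-203 and Myh4-204 overlap, so that the symbol Myh4 covers 3 successive stretches. In assembly GRCr8 the genes of this cluster are annotated in the order Myh3, Myh2, Myh1, Myh4, Myh8 and Myh13. Near-identical myosins can share reads, and the myosin that each transcript stands for is uncertain here. Summed over all transcripts with the symbol Myh4, the change was -0.30 and did not pass (adjusted p = 0.0955). All 6 transcripts of Tnnt3, the fast troponin T, had negative changes, of which 2 passed. Tnnt3-206 fell from 879.9, 1952 and 566 to 73.2, 116 and 74.99 (log2 fold change -3.51, SE 0.38, adjusted p = 0.000147), while the most abundant of its transcripts changed by -0.36 (adjusted p = 0.232).

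Slow contractile genes showed no common rise. Of 13 measured members, 2 rose and none fell, with a median of -0.11, and without animal 2, 2 fell. The 2 calls were Sln, the sarcolipin that inhibits the calcium pump (0, 0.386 and 0.383 to 3.34, 16.9 and 0.727, log2 fold change 2.04, SE 0.54, adjusted p = 0.0264), and Casq2, the cardiac and slow calsequestrin (12.4, 14.5 and 14.00 to 62.3, 61.2 and 16.1, log2 fold change 1.48, SE 0.34, adjusted p = 0.0128). In both, animal 3 was lowest of the trained muscles, and both calls were lost with animal 1 or 2 left out (adjusted p for Sln = 0.119 without animal 1 and 0.204 without animal 2, and for Casq2 = 0.12 without animal 1 and 0.0998 without animal 2). Myh7, the slow myosin, was at -0.28 (adjusted p = 0.458) and Tnni1, the slow troponin I, at -0.11 (adjusted p = 0.838).

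Some developmental isoforms and intermediate filaments rose. Of 15 measured members, 7 rose and none fell, with a median of 0.87, and the count was 5 without animal 1 or 2. Nes, the intermediate filament nestin, rose by 1.80 (SE 0.32, adjusted p = 0.00373), Vim by 1.55 (SE 0.18, adjusted p = 0.000251) and Des, the desmin of the fibre, by 1.03 (SE 0.18, adjusted p = 0.00273). Myh8, the neonatal myosin, was low in all muscles and stood at 3.05, 5.53 and 8.09 in the contralateral muscles and 24.2, 14.8 and 13.95 in the trained muscles (log2 fold change 1.54, SE 0.27, adjusted p = 0.00301), a call lost with the 6 muscles fitted alone (adjusted p = 0.0833). Myh3, the embryonic myosin, stood at 4.65, 5.87 and 6.69 in the contralateral muscles and 25.8, 46.2 and 5.45 in the trained muscles (log2 fold change 1.59, SE 0.47, adjusted p = 0.0431). For Myh3 the trained level of animal 3 lay within the contralateral range, and the call was lost with animal 1 or 2 left out (adjusted p = 0.239 without animal 1 and 0.279 without animal 2).

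Most myogenic regulators did not pass. Of 15 measured members, 2 rose and none fell, with a median of 0.39, and the count was 1 without animal 2. These counts are near the shares over all genes, 9.75% higher and 5.70% lower. Mef2c, a partner of the myogenic factors, rose by 0.71 (SE 0.12, adjusted p = 0.00232, and 0.0555 with the 6 muscles fitted alone). The determination factor Myod1 (-0.20, adjusted p = 0.705) and the differentiation factor Myog (-0.11, adjusted p = 0.913) did not pass. Of 15 genes that denervation is known to move, 4 rose and 1 fell, but the count of rising members was 0 without animal 1 and 0 without animal 2 and 2 without animal 3. Ache, the acetylcholinesterase of the neuromuscular junction, fell by 1.20 on the log2 scale (adjusted p = 0.0018). Of the acetylcholine receptor subunits, Chrnd rose by 1.06 (SE 0.25, adjusted p = 0.0161), a call lost without animal 1 or 2. The subunits Chrna1 (0.37, adjusted p = 0.285) and Chrne (0.67, adjusted p = 0.0546) did not pass.

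Most matrix genes measured rose. Of 16 measured collagens, 14 rose and none fell, with a median of 1.39. Col1a1 and Col3a1, the fibrillar collagens of the connective tissue, stood at 63.8, 40.5 and 34.8 in the contralateral muscles and 330.3, 153 and 147 in the trained muscles (log2 fold change 2.10, SE 0.35, adjusted p = 0.00223) and at 84.2, 68.1 and 53.4 in the contralateral muscles and 472, 293 and 281 in the trained muscles (log2 fold change 2.31, SE 0.19, adjusted p = 2.87e-05). All 3 trained muscles were above all contralateral ones in both, and animal 3 was the lowest in each group. The basement membrane collagens Col4a1 and Col4a2 rose by 1.79 and 1.80, and Col6a1, of the fibre surface, by 1.82. The collagens with no call were Col12a1 (0.67, adjusted p = 0.0551) and Col22a1 (0.18, adjusted p = 0.654), of which Col22a1 is known from the myotendinous junction.

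Of 32 matrix proteoglycans and glycoproteins, 23 rose and none fell, with a median of 0.95 (13 without animal 1). Bgn, the small proteoglycan biglycan, stood at 7.01, 5.73 and 5.79 in the contralateral muscles and 55.00, 42.1 and 33.2 in the trained muscles (log2 fold change 2.61, SE 0.21, adjusted p = 2.24e-05). Mfap4, a microfibril protein, rose by 2.56 (SE 0.32, adjusted p = 0.00039), Cilp by 2.03 (SE 0.23, adjusted p = 0.000171) and Fn1, fibronectin, by 1.48 (SE 0.15, adjusted p = 9.79e-05). Of 18 genes of collagen processing and crosslinking, 11 rose and 1 fell (none without animal 2), and the rising count was 6 without animal 1 and 7 without animal 2. They included Serpinh1, the collagen chaperone (1.04, adjusted p = 0.00412), and Loxl1, a crosslinking oxidase (1.29, adjusted p = 0.000737). Of 16 matrix proteases and inhibitors, 9 rose and 1 fell (4 without animal 1). They included Plaur, the urokinase receptor (1.77, adjusted p = 0.000943), and Timp1, an inhibitor of metalloproteases (1.38, adjusted p = 0.00313).

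Fibroblast markers moved with these groups. Of 12 measured markers, 10 rose and none fell, and 5 of the 12 are also in the matrix lists. Their summed level was 416, 381 and 216 in the contralateral muscles and 1355, 1007 and 749.7 in the trained muscles. Pdgfra, a defining surface receptor of muscle fibroblasts, stood at 1.67, 1.45 and 1.03 in the contralateral muscles and 4.93, 2.76 and 2.65 in the trained muscles (log2 fold change 0.87, SE 0.17, adjusted p = 0.00538), and its call was lost with animal 1 left out (adjusted p = 0.0573 without animal 1). Thy1, another surface marker, rose by 2.36 (SE 0.31, adjusted p = 0.000544). Their part in the rise of the matrix genes was not tested. Among markers of other cells, 2 of 12 endothelial markers rose, with none without animal 1 or 3 and 3 without animal 2. Of 12 smooth muscle and pericyte markers, 4 rose, with 2 without animal 1 and 2 without animal 2, and Lmod1 fell by 1.67 on the log2 scale. Of these 12 markers, 6 are also in other lists, among them Des, which rose and is also a marker of the fibre. Of 8 Schwann cell markers 1 rose, of 9 adipocyte markers 1 rose and 1 fell (none without any 1 animal for the one that fell, and 2 rising without animal 3), and none of 5 erythroid markers passed. Of 10 markers of the fibre itself, which check the tissue, 3 rose and none fell, with 2 rising without animal 2. The largest rise among them was that of Myh4-202 (1.37), whose myosin is uncertain. Ckm, the muscle creatine kinase, was at 14496, 15496 and 15102 in the contralateral and 9314, 12852 and 10424 in the trained muscles.

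Some integrin and membrane genes rose and most did not pass. Of 26 integrin and focal adhesion genes, 11 rose and none fell, with a median of 0.54, and the count was 7 without animal 1. Without animal 2, 1 member fell. Itga5, the fibronectin receptor chain, rose by 1.64 (SE 0.19, adjusted p = 0.000224), Itga7, the laminin receptor chain of the fibre, by 1.16 (SE 0.21, adjusted p = 0.00382), Vcl, vinculin, by 1.37 (SE 0.13, adjusted p = 6.68e-05) and Tln1, talin, by 1.21 (SE 0.16, adjusted p = 0.00055). Of 27 genes of membrane repair and the costamere, 12 rose and 1 fell, with a median of 0.44, and none fell with any 1 animal left out. S100a4, a calcium-binding protein, stood at 10.05, 4.75 and 6.82 in the contralateral muscles and 120.0, 101 and 35.2 in the trained muscles, where the trained level of animal 3 was the lowest (log2 fold change 3.27, SE 0.35, adjusted p = 0.000125). Its relative S100a10 rose by 1.94 and the annexins Anxa1 and Anxa2, which seal membrane tears, by 1.54 and 1.43. Dysf, the repair protein dysferlin, rose by 0.91 (SE 0.15, adjusted p = 0.00268), while the sarcoglycan Sgca (0.14, adjusted p = 0.564) and caveolin Cav3 (0.21, adjusted p = 0.3) did not pass.

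Cytokine genes and macrophage markers rose in part. Of 19 cytokines and receptors, 10 rose and none fell, with a median of 0.57. Without animal 1, 1 member fell. Ccl2, the chemokine that draws monocytes, stood at 0.982, 0.413 and 0.820 in the contralateral muscles and 17.6, 4.78 and 9.73 in the trained muscles (log2 fold change 2.61, SE 0.31, adjusted p = 0.000295), and its neighbour in function Ccl7 rose by 1.97 (SE 0.30, adjusted p = 0.00146). Csf1, the macrophage growth factor, rose by 1.48 (SE 0.16, adjusted p = 0.000165), while the receptor chains Il6r (-0.36, adjusted p = 0.264) and Il6st (-0.03, adjusted p = 0.924) did not pass. Of 14 measured macrophage markers, 11 rose and none fell (5 without animal 1). Their summed level was 68.1, 51.5 and 38.7 in the contralateral muscles and 157, 123 and 72.8 in the trained muscles, so that animal 3 was lowest in each group. The markers Fcgr3a, Itgam, Msr1 and Ms4a7 were too low to be tested. Cd68, a macrophage lysosomal protein, stood at 1.24, 1.11 and 0.276 in the contralateral muscles and 5.17, 3.69 and 1.75 in the trained muscles (log2 fold change 1.24, SE 0.24, adjusted p = 0.00536). The part of these markers in the cytokine result was not tested.

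Of 15 genes of MHC class II and antigen presentation, 7 rose and none fell (3 without animal 1 and 3 without animal 3). Cd74, the invariant chain, rose by 1.04 (SE 0.17, adjusted p = 0.00218), while the RT1 class II chains belong to a family of near-identical copies and are uncertain. The call of RT1-Da (0.93) was lost at an adjusted p of 0.064 without animal 3 and that of RT1-Ba (0.85) at 0.102 without animal 1 and 0.0859 without animal 3. The calls of RT1-Bb (0.91), RT1-Da and RT1-Ba were lost without the replicate block (adjusted p = 0.121, 0.0727 and 0.0809). Of 28 lysosome and autophagy genes, 12 rose and 1 fell (none without animal 1 or 2), among them the proteases Ctsk (1.30, adjusted p = 0.000472) and Ctsb (0.94, adjusted p = 0.000878). Of 21 genes of the cell cycle, 11 rose and none fell, with a median of 0.53. The list and its rising members hold inhibitors of division beside genes that drive it, so the count does not measure dividing cells. Cdk1, the mitotic kinase, stood at 0.317, 0.0889 and 0.0883 in the contralateral muscles and 2.57, 1.37 and 1.89 in the trained muscles (log2 fold change 1.32, SE 0.18, adjusted p = 0.000679), a low level in a tissue of largely non-dividing nuclei, and Ccnd1, cyclin D1, rose by 1.47 (SE 0.14, adjusted p = 6.06e-05). The replication helicase subunits Mcm2 (0.33, adjusted p = 0.175), Mcm4 (0.10, adjusted p = 0.675) and Mcm7 (-0.34, adjusted p = 0.103) did not pass. Of the lymphocyte and neutrophil markers, Cd4 and Lcn2 were the only ones measured high enough to test. Cd4 rose by 1.12 and Lcn2 by 0.76, and both calls held with any 1 animal left out. A single marker does not describe a cell type.

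**Figure D3:**
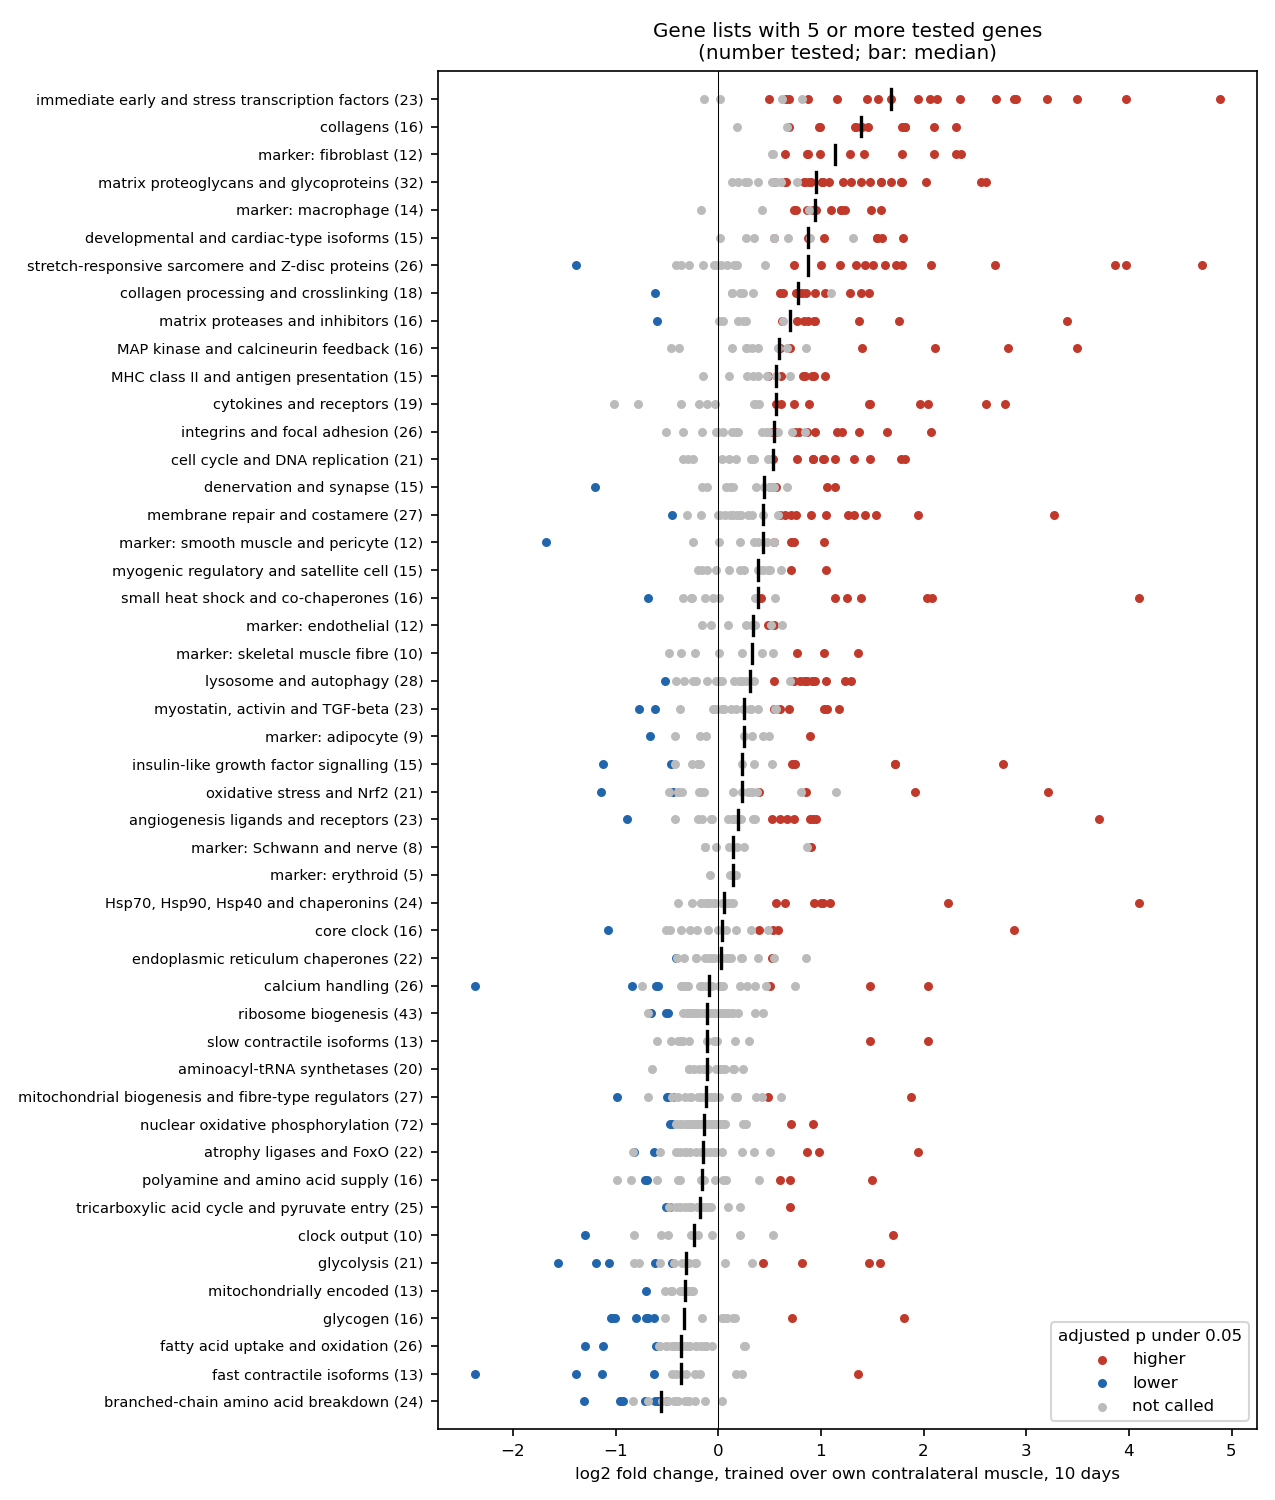
Change at 10 days of every tested member of each gene list (points, log2(level + 1) scale), with the median of the list as a bar. Members that passed an adjusted p of 0.05 are coloured, red where higher and blue where lower, and the immediate early and collagen lists lie almost wholly to the right of 0, while branched-chain amino acid breakdown lies almost wholly to the left.

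Genes for the breakdown of branched-chain amino acids, an oxidative pathway of muscle mitochondria, fell in part. Of 24 measured members, none rose and 11 fell, with a median of -0.56, and the count was 5 without animal 1 and 6 without animal 3. Bcat2, the mitochondrial aminotransferase that begins the pathway, stood at 40.9, 43.1 and 33.7 in the contralateral muscles and 12.5, 21.5 and 12.97 in the trained muscles, without overlap (log2 fold change -1.31, SE 0.22, adjusted p = 0.00233). Dbt, a subunit of the branched-chain ketoacid dehydrogenase, stood at 20.3, 16.5 and 18.2 in the contralateral muscles and 9.16, 7.93 and 9.77 in the trained muscles (log2 fold change -0.96, SE 0.13, adjusted p = 0.00075), and Aldh6a1, of valine breakdown, fell by 0.94 on the log2 scale (adjusted p = 0.000556). Bckdk, the kinase that switches the dehydrogenase off, was at 0.04 (adjusted p = 0.902).

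Some glycogen genes fell. Of 16 measured members, 2 rose and 7 fell, with 4 without animal 1 and 3 without animal 2 among the falling ones. Without animal 2 or 3, 1 rose. Phkg1, the catalytic subunit of muscle phosphorylase kinase, stood at 103, 106 and 98.8 in the contralateral muscles and 52.7, 48.3 and 46.5 in the trained muscles (log2 fold change -1.05, SE 0.16, adjusted p = 0.00157). Pygm, the muscle glycogen phosphorylase, stood at 3480.2, 3841 and 4002 in the contralateral muscles and 2256, 2221 and 2453 in the trained muscles (log2 fold change -0.71, SE 0.13, adjusted p = 0.00373). The synthase Gys1 was at 0.17 (adjusted p = 0.471), while Ppp1r27, a regulatory subunit of protein phosphatase 1, rose by 1.81 (SE 0.20, adjusted p = 0.000171).

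In glycolysis, 4 of 21 measured members rose and 5 fell, with a median of -0.31, and 3 fell with any 1 animal left out. Hk2, the hexokinase that traps glucose in the fibre, stood at 24.97, 18.6 and 25.1 in the contralateral muscles and 60.7, 53.7 and 104 in the trained muscles, with the highest trained level in animal 3 (log2 fold change 1.58, SE 0.16, adjusted p = 8.96e-05). Slc2a1, the basal glucose transporter, rose by 1.47 (SE 0.21, adjusted p = 0.000862), and Slc2a4, the insulin-regulated one, was at 0.06 (adjusted p = 0.814). Gpd1, the cytosolic arm of the glycerophosphate shuttle, stood at 325, 318 and 377 in the contralateral muscles and 116, 83.5 and 155 in the trained muscles (log2 fold change -1.56, SE 0.25, adjusted p = 0.00195), and its mitochondrial partner Gpd2 fell by 1.06 on the log2 scale (adjusted p = 0.00023). Fbp2, the muscle fructose bisphosphatase, fell by 1.19 on the log2 scale (adjusted p = 0.00178). Abundant enzymes such as Aldoa (-0.21, adjusted p = 0.376) and Pkm (-0.22, adjusted p = 0.272) did not pass.

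Few mitochondrial genes passed. Of 72 nuclear genes of oxidative phosphorylation, 2 rose and 2 fell, with a median of -0.14. The rising ones were Cox7a1, the muscle isoform of a cytochrome oxidase subunit (0.92, adjusted p = 0.00478), and Cox6a1 (0.71, adjusted p = 0.0054, and 0.0541 without animal 2), while the falls of Sdha and Atp5f1b were lost with any 1 animal left out (adjusted p for Sdha = 0.199 without animal 1, 0.131 without animal 2 and 0.096 without animal 3, and for Atp5f1b = 0.232 without animal 1, 0.107 without animal 2 and 0.0589 without animal 3). All 13 transcripts of the mitochondrial genome had negative changes, between -0.70 and -0.25, and 1 of them fell. That one, Mt-nd6, stood at 2927, 2720.0 and 2998 in the contralateral muscles and 1436, 1441 and 2692 in the trained muscles (log2 fold change -0.70, SE 0.21, adjusted p = 0.0459), with animal 3 just below the lowest contralateral level, and its call was lost with an animal left out (adjusted p = 0.258 without animal 1 and 0.209 without animal 2) and without the replicate block (adjusted p = 0.0581). In the tricarboxylic acid cycle 1 of 25 rose and 2 fell, and the counts were 0 rising with any 1 animal left out, and 0, 0 and 1 falling without animals 1, 2 and 3. Of 26 genes of fatty acid oxidation, none rose and 3 fell, with a median of -0.36 and 1 without animal 1 and 1 without animal 2. Echs1, an enoyl hydratase, fell by 1.13 on the log2 scale (adjusted p = 0.0039). Ucp3, the muscle uncoupling protein, stood at 115, 101 and 113 in the contralateral muscles and 34.4, 41.7 and 58.9 in the trained muscles (log2 fold change -1.30, SE 0.33, adjusted p = 0.0215), with the call lost at 0.146 without animal 1 and 0.0854 without animal 2 as adjusted p. With the contralateral muscles of all times pooled, its change was -0.57 and did not pass (adjusted p = 0.317).

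Genes outside these pathways that were among the steepest falls included Glul, the glutamine synthetase, at 387, 334 and 301 in the contralateral muscles and 136, 139 and 102 in the trained muscles (log2 fold change -1.44, SE 0.13, adjusted p = 4.37e-05), where no trained muscle reached the contralateral range. Gpcpd1, a glycerophosphodiesterase, fell by 1.55 (adjusted p = 0.000231), Sar1b, a small GTPase of vesicle budding, fell by 1.39 (adjusted p = 0.000465), and Atp1b2, a sodium pump beta subunit, fell by 1.33 (adjusted p = 0.000783), each on the log2 scale. Hjv, the iron-sensing hemojuvelin of striated muscle, fell by 1.16 on the same scale (adjusted p = 0.000772).

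Few genes of ribosome production and none of amino acid charging passed. Of 43 ribosome biogenesis genes, none rose and 3 fell, with a median of -0.10 (-0.03 as deposited) and 15 members above 0, and the count that fell was 1 without animal 1 and 0 without animal 2. The nucleolar proteins Ncl (0.04, adjusted p = 0.866), Fbl (0.01, adjusted p = 0.985) and Npm1 (-0.29, adjusted p = 0.184) did not pass. Of 20 aminoacyl-tRNA synthetases 0 passed with limma (1 fell without animal 1), and their median was -0.11 (-0.03 as deposited, with 6 members above 0 after rescaling). In the polyamine and amino acid supply list, 3 of 16 rose and 2 fell (1 without animal 1). Sat1, the enzyme that acetylates polyamines for export, stood at 7.75, 7.01 and 6.67 in the contralateral muscles and 23.4, 19.4 and 23.5 in the trained muscles (log2 fold change 1.50, SE 0.22, adjusted p = 0.00114). Odc1, which makes putrescine, was at -0.17 (adjusted p = 0.458). The amino acid transporter chain Slc3a2 fell by 0.69 on the log2 scale (adjusted p = 0.00538) and the transporter Slc38a2 rose by 0.70 (SE 0.13, adjusted p = 0.0045, and 0.0529 with the 6 muscles fitted alone).

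Regulators of fibre type and mitochondrial content had 2 higher and 4 lower members of 27, with a median of -0.12, and 1 in each direction with any 1 animal left out. Ppargc1a, the coactivator of mitochondrial biogenesis, stood at 1.61, 2.77 and 3.63 in the contralateral muscles and 10.7, 8.14 and 20.2 in the trained muscles, highest in animal 3 of the trained muscles (log2 fold change 1.88, SE 0.22, adjusted p = 0.000256). Maf, a factor linked to type IIB fibres, stood at 15.1, 20.1 and 25.5 in the contralateral muscles and 7.85, 11.1 and 9.92 in the trained muscles and fell (log2 fold change -0.98, SE 0.16, adjusted p = 0.00179). Tfam (-0.27, adjusted p = 0.157), Nrf1 (-0.04, adjusted p = 0.908) and Esrra (-0.04, adjusted p = 0.901), which act with Ppargc1a, did not pass. Of 26 calcium handling genes 3 rose and 4 fell, with none rising without animal 1 or 2. Camk2a, a calmodulin-dependent kinase, fell by 0.84 on the log2 scale (adjusted p = 0.00312) and the release channel Ryr1 was at 0.01 (adjusted p = 0.989).

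Growth factor genes moved gene by gene. Of 15 members of insulin-like growth factor signalling, 5 rose and 2 fell, with 3 without animal 1 and 3 without animal 3 rising and 1 without animal 1 and 1 without animal 2 falling. Irs2, a substrate of the insulin receptors, stood at 4.46, 9.07 and 4.94 in the contralateral muscles and 42.5, 47.6 and 48.9 in the trained muscles (log2 fold change 2.78, SE 0.25, adjusted p = 4.54e-05). Igf2 rose by 1.72 (SE 0.29, adjusted p = 0.00233) and Igfbp6, which binds it, by 1.72 (SE 0.24, adjusted p = 0.000729), whereas Igfbp5 fell by 1.13 on the log2 scale (adjusted p = 0.000116) and Igf1 was at 0.52 (adjusted p = 0.0886). In the list for myostatin, activin and TGF-beta, 6 of 23 rose and 2 fell, with 2 without animal 1 and 3 without animal 2 and 3 without animal 3 rising, and none, none and 1 falling without animals 1, 2 and 3. Tgfb1 rose by 1.03 (SE 0.14, adjusted p = 0.000753), and Mstn, the myostatin that restrains muscle growth, was at -0.01 (adjusted p = 0.974). Of 22 atrophy genes 3 rose and 2 fell, with 0 without animal 1 and 1 without animal 2 and 1 without animal 3 falling. The ligase Trim63 rose from 101, 114 and 81.5 to 199, 218 and 168 (log2 fold change 0.98, SE 0.14, adjusted p = 0.00112), while its partner in atrophy Fbxo32 was at 0.51 (adjusted p = 0.11). Asb5, a subunit of another ligase, rose by 1.95 (SE 0.20, adjusted p = 0.0001).

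Of 23 angiogenesis genes, 8 rose and 1 fell, with 4 without animal 1 and 5 without animal 2 and 4 without animal 3 rising and none falling with any 1 animal left out. Hbegf, a ligand of the epidermal growth factor receptor, stood at 2.00, 1.94 and 2.92 in the contralateral muscles and 50.6, 52.5 and 27.1 in the trained muscles (log2 fold change 3.71, SE 0.29, adjusted p = 2.22e-05). Vegfa changed by 0.68 (adjusted p = 0.0232), a call lost with any 1 animal left out (adjusted p = 0.0937 without animal 1, 0.0808 without animal 2 and 0.113 without animal 3), and its receptor Kdr was at 0.10 (adjusted p = 0.65). In the oxidative stress list 4 of 21 rose and 2 fell, with 1 falling with any 1 animal left out. Hmox1, the haem oxygenase, stood at 2.75, 1.91 and 2.70 in the contralateral muscles and 42.5, 25.8 and 26.4 in the trained muscles (log2 fold change 3.21, SE 0.22, adjusted p = 1.38e-05), and Gpx1, a glutathione peroxidase, rose by 1.91 (SE 0.18, adjusted p = 5.74e-05), while Me1, the malic enzyme, fell by 1.14 on the log2 scale (adjusted p = 0.000352).

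Circadian genes differed between members. Of 16 core clock genes, 4 rose and 1 fell, with a median of 0.04, but with any 1 animal left out only Ciart rose, and none fell without animal 1 or 2. Ciart, a repressor of the clock's activating pair, stood at 1.01, 1.05 and 0.402 in the contralateral muscles and 9.68, 10.4 and 18.1 in the trained muscles (log2 fold change 2.89, SE 0.31, adjusted p = 0.000141), with no overlap between the groups. Arntl (-0.47, adjusted p = 0.0965) and Clock (-0.37, adjusted p = 0.16), which form that pair, and the period gene Per1 (-0.51, adjusted p = 0.0576) did not pass. Of 10 output genes, 1 rose and 1 fell, the latter not without animal 1 or 2. The rising one was Dbp, an output transcription factor, at 1.36, 0.254 and 1.76 in the contralateral muscles and 4.33, 8.54 and 4.52 in the trained muscles (log2 fold change 1.70, SE 0.34, adjusted p = 0.00636). Its call was lost with the 6 muscles fitted alone (adjusted p = 0.0794) and with the contralateral muscles of all times pooled, where its change was 0.27 (adjusted p = 0.839), and its mean over all 24 muscles, 8.47, was above the trained mean of 5.79 at 10 days.

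The 3 animals differed in how far their muscles moved. Among the 1187 rising transcripts, the median log2 difference within an animal was 0.94, 0.85 and 0.81 for animals 1, 2 and 3, and among the 689 falling ones -0.65, -0.62 and -0.57. Animal 3 had the smallest change of the 3 in 42.0% of the rising and 43.3% of the falling transcripts. The differences of the animals correlated across the tested transcripts with r of 0.53 for animals 1 and 2, 0.51 for animals 1 and 3 and 0.52 for animals 2 and 3, where each r is over transcripts of 1 pair of animals and transcripts are not independent. The smaller change of animal 3 was not shared by all genes. It was seen in Atf3, Ankrd1, Csrp3 and S100a4, where its trained level was the lowest, and not in Nr4a3, Hk2 and Ppargc1a, where it was the highest.

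**Figure D4:**
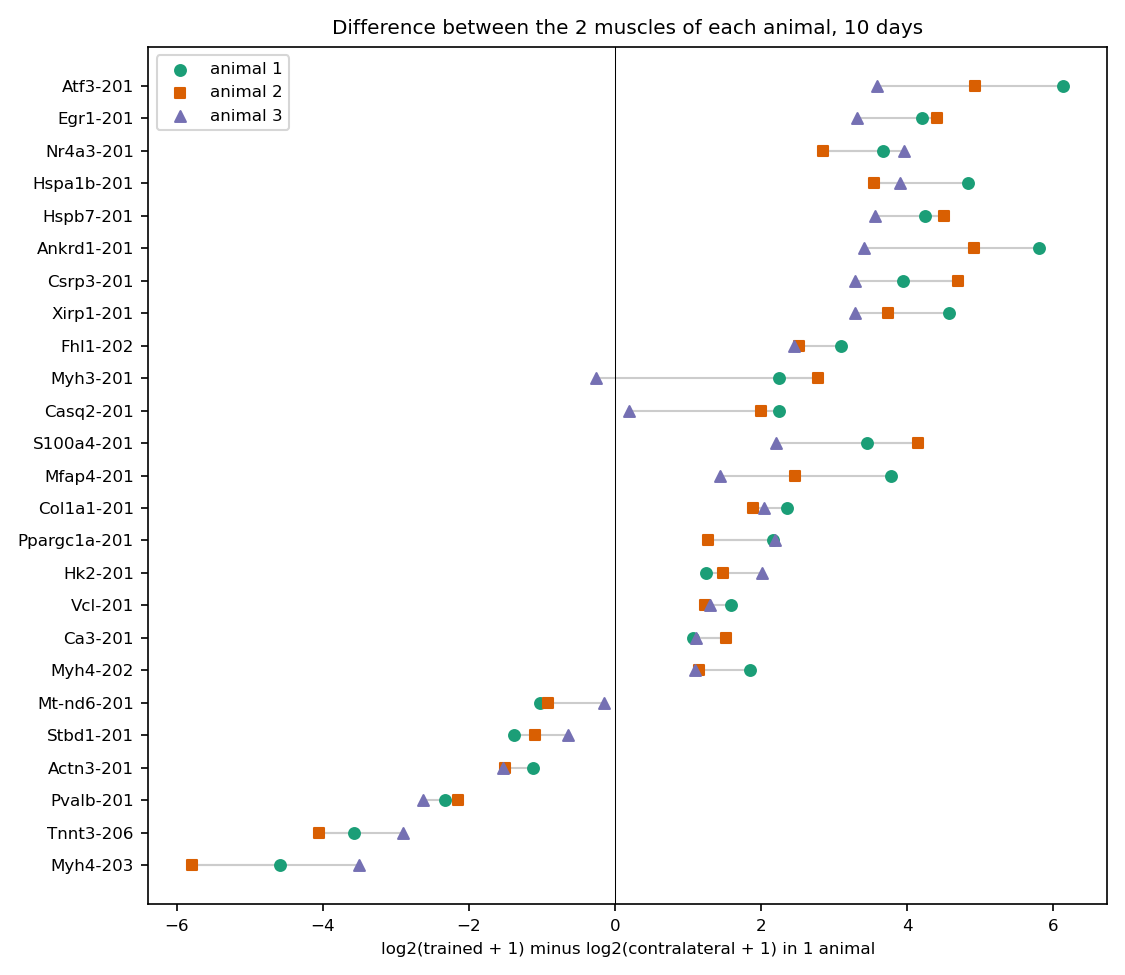
Difference between the trained and the contralateral muscle of each of the 3 animals (1 symbol per animal, log2(level + 1) scale) for transcripts named in the text. Animal 3 lies nearest to 0 in Atf3, Ankrd1, Myh3, Casq2 and Mt-nd6, but farthest from 0 in Nr4a3, Hk2 and Pvalb.

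The change at 10 days was also compared with the changes of other rats after 2, 20 and 30 days, each against their own contralateral muscles, so that no muscle is shared between the changes. Of the 1876 transcripts called at 10 days, 1772 had the same sign of change at 2 days, 1798 at 20 days and 1752 at 30 days, and since these were chosen at 10 days the shares are a description. Few transcripts passed in these comparisons. Against 2 days 3 of 13452 passed (0.0223%, with 1070 at an unadjusted p under 0.05), against 20 days 0 passed with limma (0%, with 1086), and against 30 days 6 passed (0.0446%, with 1391). A missed threshold does not show that the changes were alike. Against 2 days the count was 0, 0 and 1 without 10-day animals 1, 2 and 3, and 18, 0 and 0 without 2-day animals 1, 2 and 3. Against 30 days it was 1 without 10-day animal 2, and 1, 0 and 0 without 30-day animals 1, 2 and 3.

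Ca3, the carbonic anhydrase of muscle that is most abundant in slow fibres, went opposite ways at 2 and 10 days. At 10 days it stood at 1327, 1017 and 1317 in the contralateral muscles and 2796, 2928 and 2843 in the trained muscles, and at 2 days at 1596, 890.5 and 1475 in the contralateral and 1172, 727 and 778 in the trained muscles. The change was 1.24 (SE 0.17) at 10 days and -0.55 at 2 days, a difference of 1.79 (SE 0.24, adjusted p = 0.0461). The trained muscles were above all contralateral muscles at 10 days and overlapped with them at 2 days. The call on the difference was lost without any 1 of the 10-day animals (adjusted p = 0.102, 0.154 and 0.125) and without 2-day animal 2 or 3 (adjusted p = 0.0787 and 0.152). Dusp2 rose by 3.49 at 10 days and by 1.49 at 30 days, a difference of 2.00 (SE 0.27, adjusted p = 0.0366). The call on Dusp2 was lost without 10-day animal 1 or 2 (adjusted p = 0.181 and 0.219) and without any 1 of the 30-day animals (adjusted p = 0.142, 0.0974 and 0.219).

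The changes of leading genes at the other times are given as a description. Atf3 changed by 5.26, 4.89, 4.72 and 5.02 at 2, 10, 20 and 30 days, and Ankrd1 by 7.48, 4.72, 2.44 and 1.63. Pvalb changed by -1.22, -2.37, -3.06 and -2.99, and Myh4-204 by -0.82, -4.74, -6.20 and -6.34. The values of Ankrd1 ran downward with time and those of Myh4-204 to larger falls, but for none of these 4 did the change at 10 days differ from that of another time by an adjusted p of 0.05 in limma. The rising immediate early list had a median of 1.80 at 2 days, 1.69 at 10, 1.74 at 20 and 1.40 at 30 days. Collagens had medians of 1.03, 1.39, 1.05 and 0.84, and branched-chain amino acid breakdown -0.58, -0.56, -0.30 and -0.28. The medians of ribosome biogenesis were 0.15, -0.10, -0.05 and -0.10, and they were not tested against each other.

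**Figure D5:**
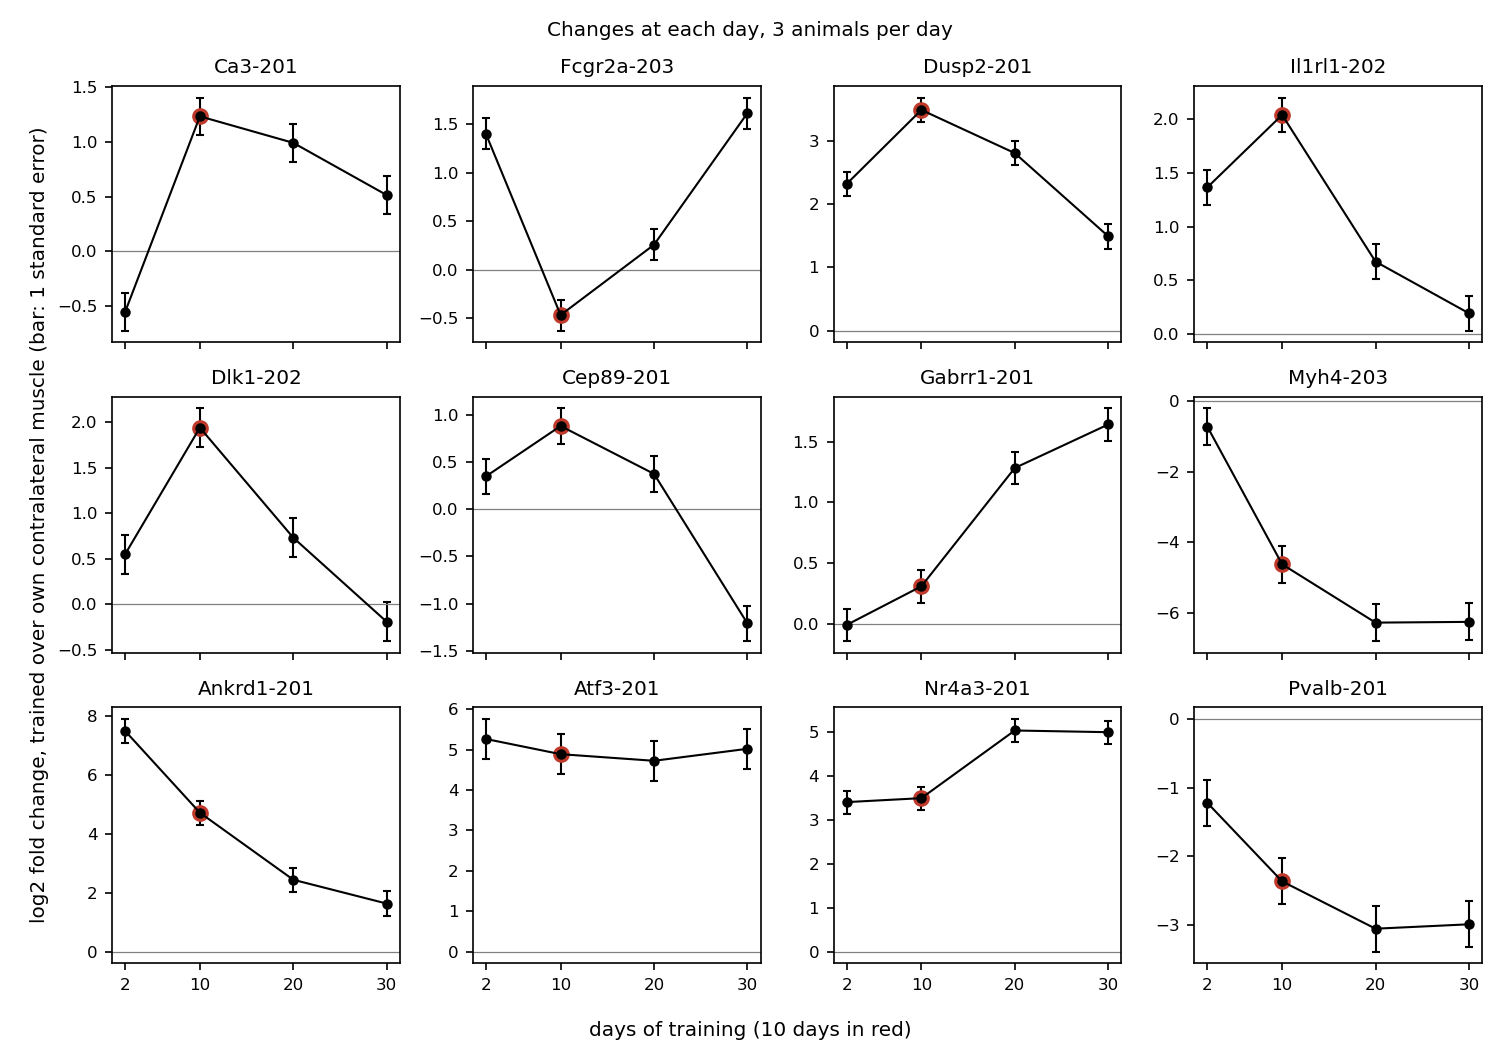
Change against the own contralateral muscle at 2, 10, 20 and 30 days (log2(level + 1) scale, bars of 1 standard error, 3 animals at each time) for 7 transcripts whose change at 10 days passed against another time and 5 leading ones. Ca3 changed by -0.55 at 2 days and 1.24 at 10 days, and Dusp2 by 3.49 at 10 days and 1.49 at 30 days.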

How the data were processed

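RNA from whole tibialis anterior was selected by poly-A, made into directional libraries and sequenced. Per the labels and methods, the authors used Partek, STAR, rn6 with Ensembl transcripts, and DESeq2. The deposited transcript table holds TPM-type values for 20027 transcripts of 15273 genes, with the same total of 634431 or 634430 in each of the 24 libraries, so that they are not the median-of-ratios values that the methods name, and division by transcript length is not stated. A second deposited table is a constant multiple of it. Neither holds read counts, so depth is unknown and no count model was run. Another deposited table holds the authors' own fold changes and p-values and was not used.

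Each library was divided by a median-of-ratios factor (from 16230 transcripts above 0 in all libraries). Transcripts reaching 1 in 3 or more of the libraries were tested with limma 3.58.1 in R 4.3.3 on log2(value + 1), with 12 animal terms (the replicate block) and 1 training effect per time over all 24 libraries, two-sided, with Benjamini-Hochberg adjustment. The pairing comes from the animal numbers in the labels. Deviations from the group means correlated between the 2 muscles of an animal with a median r of 0.133 (0.0174 to 0.27). The test was checked on simulated data with 200 changed transcripts and independent normal errors. It recovered 71.2% of log2 changes of 1 and 95% of log2 changes of 2, and 4.42% of calls were false. The real data hold more changed transcripts, and transcripts are not independent, so these shares need not hold there.

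The members and the gene lists were chosen with earlier results of these data known. Named were the 12 transcripts that rose and the 12 that fell most among those called with a group mean of at least 50 and no overlap of the groups, up to 4 called members per list with the largest changes and the member that names the list, transcripts called between times with a mean of at least 10, and the myosins of chromosome 10. Some items that the rule names are not reported here. Other members named were chosen after their values were seen. A gene stands in a list by its most abundant transcript. Alternatives were unscaled values, a pseudocount of 0.1, no filter, a mean of at least 10, no replicate block, pooled controls, the 6 muscles alone, sums per gene, a variance trend, an adjusted p of 0.01 and leaving out each animal. Promoters are from RefSeq (GRCr8), with an entry for 8103 of the tested genes.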

Additional observations from a re-analysis of the deposited data

Results flagged for a closer look

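The results below were singled out because the change at 10 days differed from the change at another time in the direct comparison of both within limma. Ca3 rose at 10 days and fell at 2 days, with a difference of 1.79 on the log2(level + 1) scale (SE 0.24, adjusted p = 0.0461). The rise of Dusp2 was larger at 10 than at 30 days, with a difference of 2.00 (SE 0.27, adjusted p = 0.0366).

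The other 6 concern transcripts whose levels were under 5 in every muscle of the times compared. Fcgr2a-203, a transcript of a low-affinity antibody receptor with near-identical relatives, changed by -0.47 at 10 days, and the difference was -1.87 against 2 days (adjusted p = 0.0228) and -2.09 against 30 days (adjusted p = 0.0152). Il1rl1-202, of the interleukin-33 receptor, was listed at or near 0 in all contralateral muscles of 10 days and at 4.20, 2.95 and 2.40 in the trained ones, and the difference from 30 days was 1.85 (adjusted p = 0.0248). Dlk1-202, of a Notch-related ligand, stood at 0.665, 0.224 and about 0 in the contralateral muscles and at 2.84, 4.03 and 4.99 in the trained ones, with a difference from 30 days of 2.14 (adjusted p = 0.0366). Cep89-201, of a centrosomal protein, had a difference from 30 days of 2.09 (adjusted p = 0.0248), and Gabrr1-201, of a GABA receptor subunit, one of -1.33 (adjusted p = 0.0366). Of these, Fcgr2a-203 against 30 days was the one whose call held without each of the 10-day animals in turn, and it was lost without 30-day animal 2 or 3 (adjusted p = 0.0845 and 0.127).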

How the results depend on the processing

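None of the called transcripts changed sign under any alternative at the level of transcripts. Against 1876 called (1187 higher, 689 lower), the count was 1063 (455 and 608) with a mean of at least 10, 3063 (1356 lower) with pooled controls, 747 (577 and 170) with the 6 muscles alone and 854 (654 and 200) at an adjusted p of 0.01, and 291 were lower as deposited. With 1 animal left out it was 901 to 1159, with 646 to 817 higher and 255 to 342 lower. Members of the lists called numbered 323, against 183 with a mean of at least 10, 184 with the 6 muscles alone and 197 to 250 with 1 animal left out. Without the replicate block 1076 were higher and 648 lower, and 7 of 152 named transcripts lost their call. Leaving out an animal cost 37 of the 152 their call at least once.

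The 3 differences from 2 days became 1 as deposited, 1 with a pseudocount of 0.1, 24 with a mean of at least 10, 1 without the replicate block, 7 with sums per gene, 0 at an adjusted p of 0.01, 0 to 1 without a 10-day animal and 0 to 18 without a 2-day animal, which was chosen after seeing the data as were the other times' animals. The 0 differences from 20 days became 1 with a mean of at least 10 and 1 with sums per gene. The 6 from 30 days became 2 with a pseudocount of 0.1, 2 without the filter, 0 at an adjusted p of 0.01, 1 to 6 without a 10-day animal and 0 to 1 without a 30-day animal. Sums per gene symbol had the opposite sign to Rtn4-201 (-0.26) and to Myh4-201, Myh4-202 and Myh4-205 (-0.30 for the symbol Myh4). Other transcripts with the same symbol fell, and those named Myh4 may stand for different myosins. Myh4-206, not called, was at -0.31 in the main fit and lay between -1.19 and 0.67 with 1 animal left out. The cause of these changes was not tested. Depth is unknown, so the precision of low transcripts could not be bounded.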

Other observations

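Of 80 genes with more than 1 transcript called at 10 days, 8 had transcripts called in opposite directions. They were chosen after their values were seen. Beside Rtn4 and the symbol Myh4 they were Cyhr1, Ssr1, Tsc22d1, Lgals9, Cep89 and a gene known only by the clone name AABR07064873.1. The symbol Myh4 covers successive stretches of the chromosome, and the myosin of each transcript is uncertain. How the authors' transcript quantification divided reads between transcripts of a gene was not tested.

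Cyhr1 encodes a cysteine- and histidine-rich protein. Cyhr1-204 stood at 41.7, 40.9 and 43.9 in the contralateral muscles and 26.01, 23.6 and 24.7 in the trained muscles (log2 fold change -0.75, SE 0.12, adjusted p = 0.00229), and Cyhr1-207 at 0.247, 0.256 and 0.158 in the contralateral muscles and 2.98, 9.36 and 5.58 in the trained muscles (log2 fold change 2.41, SE 0.45, adjusted p = 0.00453). Both were separated between the groups, and both calls held with each animal left out in turn. Ssr1 encodes a subunit of the translocon of the endoplasmic reticulum. Ssr1-201 stood at 7.78, 5.99 and 5.72 in the contralateral muscles and 11.99, 11.8 and 11.2 in the trained muscles (log2 fold change 0.76, SE 0.15, adjusted p = 0.00528) and Ssr1-202 at 17.9, 23.5 and 17.99 in the contralateral muscles and 9.33, 11.1 and 10.6 in the trained muscles (log2 fold change -0.87, SE 0.18, adjusted p = 0.00866), and the call of the latter was lost with an animal left out (adjusted p = 0.053 without animal 1 and 0.0639 without animal 2). Tsc22d1 encodes long and short leucine zipper proteins from separate promoters. Tsc22d1-201 stood at 90.9, 61.8 and 55.01 in the contralateral muscles and 150.4, 150.3 and 92.99 in the trained muscles (log2 fold change 0.91, SE 0.18, adjusted p = 0.00549) and Tsc22d1-202 at 19.8, 26.8 and 33.8 in the contralateral muscles and 15.4, 12.4 and 15.8 in the trained muscles (log2 fold change -0.82, SE 0.18, adjusted p = 0.0112), with calls lost at an adjusted p of 0.056 without animal 2 for the first, and of 0.0861 without animal 2 and 0.0821 without animal 3 for the second. The levels of the called transcripts of Lgals9, Cep89 and the clone-named gene were under 10 in every muscle.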
